A study of Mus musculus with 6 samples.

Results

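The mitochondrial DNA expression factors described here are 10 nuclear genes whose proteins copy, transcribe or help translate the mitochondrial genome: Tfam, Tfb1m, Tfb2m, Polrmt, Polg, Twnk, Wars2, Yars2, Sars2 and Lars2. They were taken by symbol from the probe sets that the array's annotation pairs with exactly 1 gene, and where a gene had several probe sets the one with the highest mean was used. All 10 were found, out of 19937 genes measured in this way. The set was selected on the array values of this same comparison, because those of Tfb2m and Wars2 were higher without active SIRT1, so the differences between genotypes given below for these genes are a description and carry no test.

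The RNA came from 6 cultures of dividing neural stem cells and progenitors of adult 129SV mice, aged 8 weeks, and was read on Affymetrix whole-transcript arrays. The 3 control cultures came from Sirt1lox/lox mice, which carry floxed Sirt1 alleles and no Cre recombinase. The 3 Sirt1 inactive cultures came from NestinCre;Sirt1lox/lox mice, in which the Nestin promoter, active in neural progenitors, drives Cre; per the labels these cells lack active SIRT1, an NAD-dependent deacetylase. All cultures had been grown as neurospheres with B27, EGF and bFGF, were replated on poly-D-lysine and were collected at passage 2. Because the floxed alleles are in both genotypes and Cre in only 1 of them, an effect of Cre cannot be told apart from the loss of SIRT1. The labels call the samples biological replicates without giving the number of mice in each, so the spread between replicates may be partly technical. In RNA from a whole culture, fewer cells of a type and less RNA per cell cannot be told apart.

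Mitochondria keep a small circular genome that encodes a few subunits of the respiratory chain together with the ribosomal and transfer RNAs needed to make them, and all other parts of the machinery are imported products of nuclear genes. POLRMT, the mitochondrial RNA polymerase, starts transcription together with TFAM, which bends and packages the DNA, and TFB2M, which opens the promoter; POLG is the DNA polymerase and Twinkle (Twnk) the helicase of replication. The synthetases Wars2, Yars2, Sars2 and Lars2 load mitochondrial transfer RNAs with tryptophan, tyrosine, serine and leucine. The promoters of some nuclear genes of this machinery are known for sites of NRF1 and of the ETS factor GABP. The coactivator PGC-1alpha (Ppargc1a), a SIRT1 substrate, acts through these factors.

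The promoters of Tfb2m and Wars2 are shown because these genes had the largest differences among the 10. Each run is the 250 bases before a transcription start, 5′ to 3′ on the gene's strand, from RefSeq on build GRCm38.p6. Tfb2m is on the minus strand at chr1:179546277-179546526, and Wars2 on the plus strand at chr3:99140840-99141089, inside the outermost limits RefSeq gives for that gene. Capitals mark matches to the motifs searched on both strands, which were CGCATGCG for NRF1, CCGGAAG for GABP and other ETS factors, GGGCGG for SP1, CACGTG for the E-box and ATGGCGG for YY1.
Tfb2m: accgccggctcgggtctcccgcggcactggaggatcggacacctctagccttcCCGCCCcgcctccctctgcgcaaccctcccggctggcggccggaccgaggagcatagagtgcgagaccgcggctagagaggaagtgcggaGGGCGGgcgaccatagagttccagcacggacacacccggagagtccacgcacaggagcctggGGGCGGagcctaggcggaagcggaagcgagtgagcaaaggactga
Wars2: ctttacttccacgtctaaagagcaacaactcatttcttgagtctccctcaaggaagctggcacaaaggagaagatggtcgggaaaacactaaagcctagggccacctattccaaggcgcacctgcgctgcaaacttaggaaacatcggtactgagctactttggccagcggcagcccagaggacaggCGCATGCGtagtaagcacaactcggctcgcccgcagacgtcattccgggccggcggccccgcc

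The Tfb2m window held 3 SP1 matches, beginning 197, 107 and 45 bases before the start, and no match to the other motifs. Wars2 held 1 NRF1 match, which began 63 bases before the start, and it was the only gene of the 10 with one; 1.55% of 32851 promoter windows of this length hold it. GABP/ETS letters stood in 5 of the 10 genes, Tfam, Polrmt, Polg, Twnk and Sars2, against 6.91% of all windows. SP1 letters stood in 7 genes, against 32.7% of all windows, and E-box and YY1 letters in none, against 6.02% and 2.21%. Counted by gene, for the 15613 measured genes with a window, the shares were 2.51% for NRF1, 10.7% for GABP/ETS, 49.3% for SP1, 8.11% for the E-box and 3.17% for YY1. Twnk had 2 windows and both its GABP/ETS matches were in the same one. In this search for exact letters, the promoters of Tfb2m and Wars2 therefore shared no match. Sites that depart from these letters were not searched for. A gene without a match may still have a site of the same factor.

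Sirt1 itself read 8.73, 8.78 and 8.55 in the control arrays and 8.26, 8.33 and 8.25 in the Sirt1 inactive arrays, on the log2 RMA scale used for all values here. The groups did not overlap, and the difference, Sirt1 inactive minus control, was -0.41 (SE 0.076; n = 3 per genotype; limma, adjusted p = 0.959). An exact two-sided permutation over the arrays gave p = 0.1, which is the lowest value 3 arrays per genotype can reach. The sources used here do not say which exons are floxed, and this probe set need not report the deletion. Among the 10 measured progenitor markers, Nes read 11.55 to 11.70 and Sox2 11.60 to 11.78 across the arrays. Prom1 read 7.08 to 7.64, below the median brightness over genes of 7.94. Between genotypes 6 of the 10 markers were above 0, where 39.0% of all genes were, with a median difference of 0.011. None had groups without overlap. Of all probe sets, 2.62% had such groups with the Sirt1 inactive arrays above and 6.71% with them below. With 10 genes nothing is read from that count. Control replicate 3 stood apart from the other arrays, at a median absolute distance of 0.117 from their mean against 0.059 to 0.089 for the other 5.

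Among all probe sets with a gene, 0 of 22961 probe sets passed at an adjusted p of 0.05 (limma), and 830, or 3.61%, had an unadjusted p under 0.05. Accordingly 0 of the 10 factors passed, where 0% of all probe sets did, and 2 of the 10, Tfb2m and Wars2, had an unadjusted p under 0.05 with a higher value, where 0.984% of all probe sets did. The groups did not overlap in 2 of the 10, Tfb2m and Wars2, both with the Sirt1 inactive arrays above; this was so for 2.62% of all probe sets in that direction and for 6.71% in the other. These 2 genes are the ones the set was chosen for, so nothing is read from those counts. The values of the set differed by -0.074 to 0.35 between genotypes, with 8 genes above 0 and 2 below, where 39.9% of all probe sets were above 0.

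**Figure D1:**
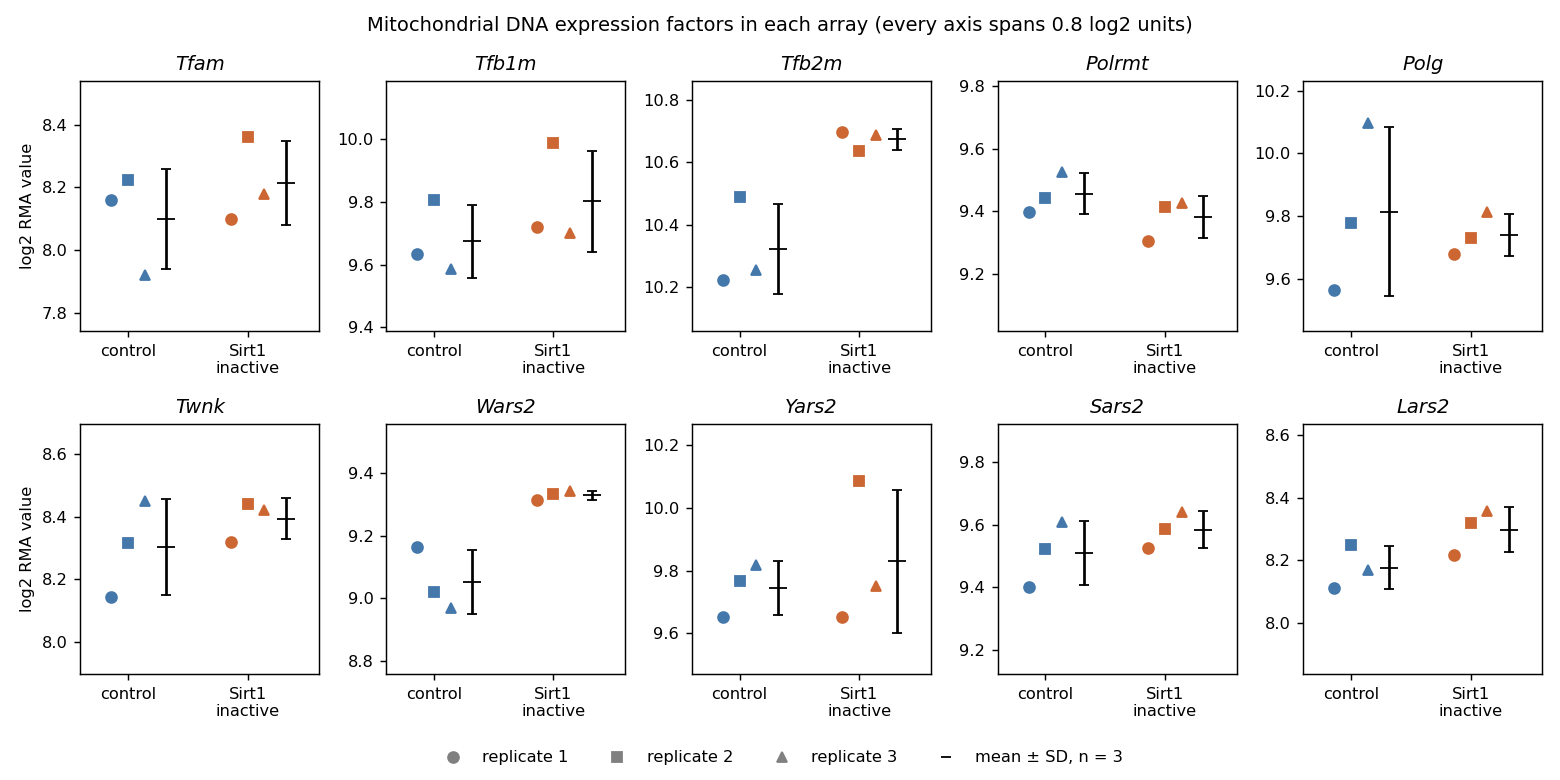
Log2 RMA value (vertical axis) of the 10 factors in each of the 6 arrays, by genotype; symbols give the replicate number, and the black bars are the mean ± SD over 3 arrays. Only the panels of Tfb2m and Wars2 show groups that do not overlap, and the Sirt1 inactive arrays of Wars2 lie between 9.31 and 9.34.

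Among the initiation factors, Tfb2m, the promoter-opening partner of POLRMT, had the largest difference of the set. It read 10.22, 10.49 and 10.26 in control, against 10.70, 10.64 and 10.69 without active SIRT1. The lowest Sirt1 inactive array lay 0.15 above the highest control array, and the Sirt1 inactive arrays were close together, at 10.67 ± 0.033 against 10.32 ± 0.15 (SD, n = 3). The difference was 0.35 (SE 0.083), which is 1.27-fold on the RMA scale. Within same-numbered pairs it was 0.47, 0.15 and 0.43, and with each array left out in turn it ran from 0.30 to 0.43. Control replicate 2, the brightest control, is thus the array that brings the genotypes nearest.

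The second probe set that the annotation pairs with Tfb2m had a smaller difference. It read 9.77, 9.84 and 9.65 in control and 9.85, 9.997 and 9.78 in the Sirt1 inactive arrays. Here the groups overlapped, because control replicate 2 lay above Sirt1 inactive replicate 3. The difference was 0.12 (SE 0.082), with 0.072, 0.15 and 0.13 in the 3 pairs. Averaging both probe sets gave a difference of 0.23. The annotation lists the same accessions for both, but in identifier order the second stands between probe sets of genes on chromosome 12, while Tfb2m is on chromosome 1. Whether it reads the Tfb2m transcript was not tested, so neither 0.12 nor 0.23 need be a value of that gene.

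**Figure D2:**
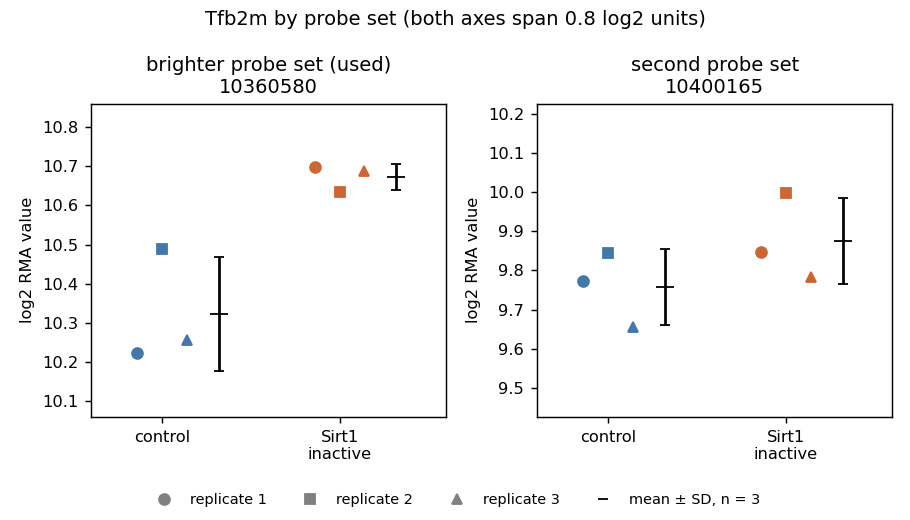
Log2 RMA value (vertical axis) of the 2 probe sets paired with Tfb2m in each array, by genotype, with the mean ± SD over 3 arrays in black. In the brighter probe set every Sirt1 inactive array lies above every control array, while in the other the groups overlap.

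Tfb1m, the paralog of Tfb2m that methylates mitochondrial ribosomal RNA, read 9.63, 9.81 and 9.59 in control and 9.72, 9.99 and 9.70 in the Sirt1 inactive arrays. Its groups overlapped, with replicate 2 the brightest in both genotypes. The difference was 0.13 (SE 0.10), and it was of the same sign in all 3 pairs, at 0.086, 0.18 and 0.12. Tfam, the packaging and promoter-bending protein, read 8.16, 8.22 and 7.92 in control and 8.10, 8.36 and 8.18 in the Sirt1 inactive arrays. Again the groups overlapped, and control replicate 3 was the dimmest array. The difference of Tfam was 0.11 (SE 0.10) with all arrays and 0.022 without control replicate 3.

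Polrmt, the RNA polymerase itself, was 1 of the 2 genes with lower values. It read 9.40, 9.44 and 9.53 in control, against 9.31, 9.41 and 9.43 without active SIRT1. The difference was -0.074 (SE 0.066), with -0.093, -0.030 and -0.099 in the pairs, so the polymerase and its partner Tfb2m had opposite signs in all 3 pairs. With each array left out in turn the Polrmt difference ran from -0.10 to -0.036.

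The replication genes showed small differences that rested on single arrays. Polg, the catalytic subunit of the DNA polymerase, read 9.56, 9.78 and 10.10 in control and 9.68, 9.73 and 9.81 in the Sirt1 inactive arrays. The control arrays alone spanned the whole range of the other genotype. The Polg difference of -0.074 (SE 0.13) became 0.069 without control replicate 3, its brightest array. Twnk, the helicase, read 8.14, 8.32 and 8.45 in control and 8.32, 8.44 and 8.42 in the Sirt1 inactive arrays. Its difference was 0.091 (SE 0.089), and it was 0.16 without control replicate 3 and 0.011 without control replicate 1.

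Wars2, the tryptophanyl-tRNA synthetase, stood out among the 4 synthetases of the set by its difference. It read 9.17, 9.02 and 8.97 in control, against 9.31, 9.33 and 9.34 without active SIRT1. The lowest Sirt1 inactive array lay 0.15 above the highest control array. The means were 9.33 ± 0.015 against 9.05 ± 0.10 (SD, n = 3). They differed by 0.28 (SE 0.069), which is 1.21-fold, and the difference was 0.15, 0.31 and 0.37 in the pairs and 0.24 to 0.34 with each array left out in turn. Unlike Tfb2m, its brightest control was replicate 1.

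Lars2, the leucyl-tRNA synthetase, read 8.11, 8.25 and 8.17 in control and 8.22, 8.32 and 8.36 in the Sirt1 inactive arrays. Only control replicate 2 lay above the lowest Sirt1 inactive array, and the difference was 0.12 (SE 0.068), with 0.10, 0.071 and 0.19 in the pairs. Sars2, the seryl-tRNA synthetase, read 9.40, 9.52 and 9.61 in control and 9.52, 9.59 and 9.64 in the Sirt1 inactive arrays. The groups overlapped, and its difference was 0.074 (SE 0.073), with 0.12, 0.067 and 0.033 in the pairs. Yars2, the tyrosyl-tRNA synthetase, read 9.65, 9.77 and 9.82 in control and 9.65, 10.09 and 9.75 in the Sirt1 inactive arrays. Its difference of 0.084 (SE 0.12) came from Sirt1 inactive replicate 2, without which it was -0.044.

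**Figure D3:**
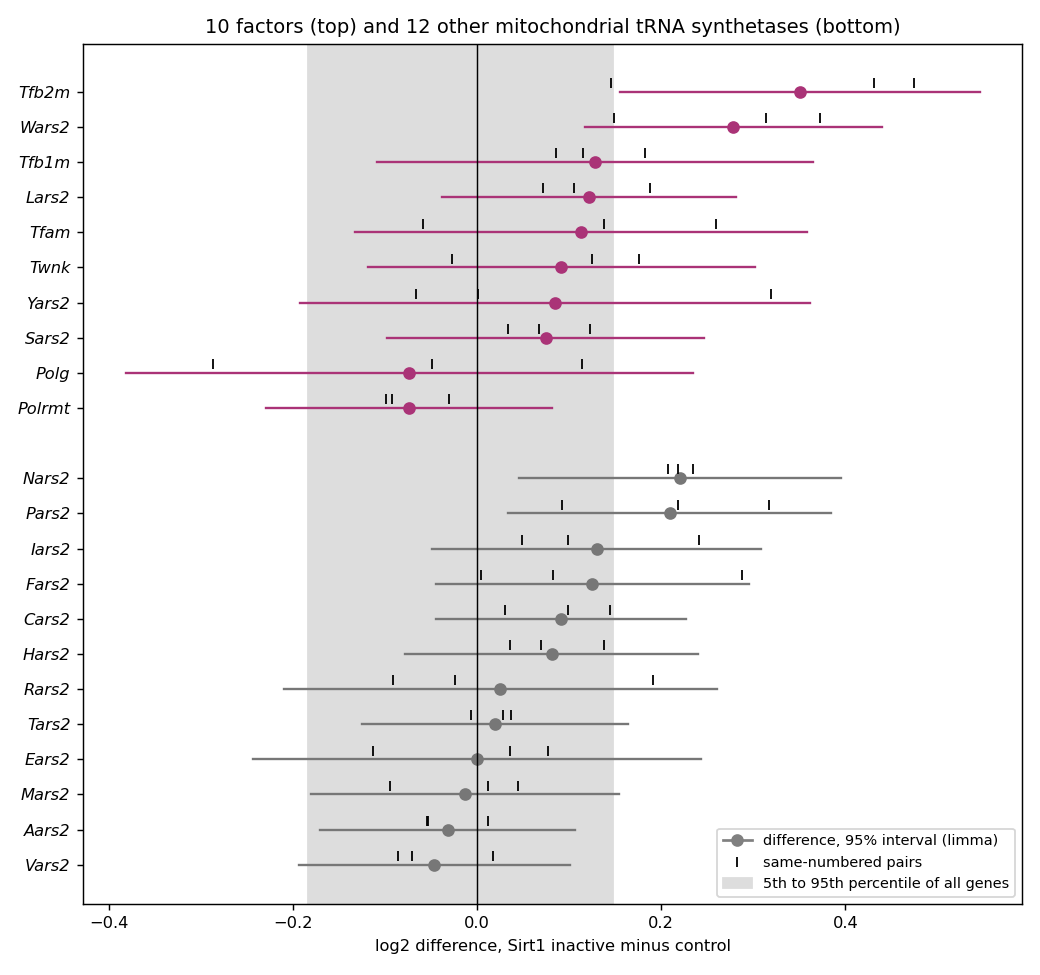
Log2 difference, Sirt1 inactive minus control (horizontal axis), of the 10 factors at the top and 12 other mitochondrial tRNA synthetases below; dots are differences, lines limma's 95% intervals, short black ticks the 3 same-numbered pairs, and the grey band runs from the 5th to the 95th percentile of all 19937 genes, -0.18 to 0.15. Tfb2m (0.35) and Wars2 (0.28) lie to the right of the band, as do Nars2 (0.22) and Pars2 (0.21).

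The arrays themselves differed over the set. Control replicate 1 was below the gene's own mean over the 6 arrays for 9 of the 10 genes and was the lowest array for 6 of them. Sirt1 inactive replicates 2 and 3 were above that mean for 8 genes each, while Sirt1 inactive replicate 1 was below it for 8, Tfb2m and Wars2 being the exceptions. Control replicate 3 was the lowest array for 3 genes and the highest for 3 others. The median difference of the set was 0.10, against -0.024 over all genes. It was 0.063 when control replicate 1 was left out, 0.053 when Sirt1 inactive replicate 2 was, and 0.17 when Sirt1 inactive replicate 1 was.

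By the root mean square distance between values over the 6 arrays, each gene centred on its own mean, the named genes nearest to Tfb2m were Hnmt, the histamine methyltransferase (0.056 log2 units), Ldhb, a lactate dehydrogenase subunit (0.075), and Chrdl1, a BMP antagonist (0.077). Their differences between genotypes were 0.28, 0.24 and 0.25. Nearest to Wars2 were Zfp985 (0.044), the long noncoding RNA Dleu2 (0.050) and Rangrf (0.052), with differences of 0.24, 0.24 and 0.21. All these neighbours were picked by nearness over the same 6 arrays, so their differences follow from that choice and nothing is read from them. A flat profile lay at 0.20 from Tfb2m and 0.15 from Wars2. Wars2 and Tfb2m were 0.13 apart. Wars2 had rank 122 among the genes by nearness to Tfb2m, while Tfb2m had rank 1240 by nearness to Wars2. Both are the genes the set was chosen for.

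Outside the set, other mitochondrial tRNA synthetases share the role of Wars2, and 12 of the 13 listed had a single-gene probe set. None passed (limma), and 9 of 12 were above 0, where 39.0% of all genes were, with a median difference of 0.053. The groups did not overlap in 4 of them, Nars2, Pars2, Iars2 and Cars2, all with the Sirt1 inactive arrays above, as was so for 2.62% of all probe sets. Nars2, the asparaginyl-tRNA synthetase, read 8.96, 9.13 and 9.02 in control and 9.17, 9.35 and 9.26 in the Sirt1 inactive arrays. Its pairs gave a nearly constant difference, 0.21, 0.22 and 0.23, with a mean of 0.22 (SE 0.074; limma, adjusted p = 0.959). Pars2, the prolyl-tRNA synthetase, read 7.37, 7.54 and 7.59 in control and 7.69, 7.76 and 7.68 in the Sirt1 inactive arrays, a difference of 0.21 (SE 0.075; limma, adjusted p = 0.959). Those of Iars2 and Cars2 were 0.13 and 0.091.

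The remaining synthetases lay between -0.047 and 0.13. Fars2 (0.13), Hars2 (0.081), Rars2 (0.025) and Tars2 (0.020) were above 0, and Ears2 was at 5.4e-05. Mars2 (-0.013), Aars2 (-0.032) and Vars2 (-0.047) were below it. The cytosolic enzymes for the amino acids of the set, which serve translation outside mitochondria, were all 4 below 0, with Wars at -0.054, Yars at -0.011, Sars at -0.12 and Lars at -0.046. None of the 4 passed (limma), and their median moved to 0.033 without control replicate 3.

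Across the other nuclear genes of mitochondrial DNA expression, 78 of 82 listed genes were measured, the 12 synthetases included. In this wider list 0 passed in either direction (limma), while 62 of 78 were above 0, or 79.5%, against 39.0% of all genes. The median difference was 0.063, against -0.024 over all genes. These genes are bright, with 69 of 78 at or above the median brightness of all genes, and among all genes that bright 47.7% were above 0, with a median of -0.0051; the part of brightness was not tested. The groups did not overlap with the Sirt1 inactive arrays above in 9 of 78, or 11.5%, against 2.62% of all probe sets, and below in 1, or 1.28%, against 6.71%. Among all genes at or above the median brightness, these shares were 3.26% above and 4.85% below. Unadjusted p-values under 0.05 came for 5 of 78, against 3.61% of all probe sets, and all 5 were above 0, against 0.984% of all probe sets. They were Nars2, Pars2, Pnpt1, Taco1 and Gatb, the last 3 named after their values were seen.

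The median over these 78 genes varied between arrays of the same genotype. Relative to each gene's own mean it was -0.076, -0.00035 and -0.010 in the control arrays and -0.044, 0.099 and 0.033 in the Sirt1 inactive arrays. The groups overlapped, and the exact two-sided permutation test, which takes the arrays as unpaired, gave p = 0.4, with 0.1 the smallest possible. Within same-numbered pairs the median differences were 0.032, 0.098 and 0.042, with no test of the pairs. Leaving out Sirt1 inactive replicate 2 gave a median difference of 0.010, leaving out control replicate 1 gave 0.033, and leaving out Sirt1 inactive replicate 1 gave 0.10. In those pairs, 54, 63 and 50 of the 78 genes were above 0, or 69.2%, 80.8% and 64.1%, against 44.6%, 47.3% and 36.7% of all genes.

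Among the roles with 10 or more genes, RNA processing and translation factors had the largest shares above 0. In RNA processing and stability 16 of 17 were above 0, with a median of 0.063; Lrpprc, which stabilises mitochondrial messenger RNAs, differed by 0.082. Pnpt1, the mitochondrial polynucleotide phosphorylase, read 9.82, 9.86 and 9.68 in control and 9.95, 9.99 and 9.95 in the Sirt1 inactive arrays, a difference of 0.18. For translation factors the count was 12 of 13, with a median of 0.085 and the elongation factor Tufm at 0.085. Taco1, a translational activator of the mitochondrial message for a cytochrome oxidase subunit, differed by 0.19, and Gatb, a subunit of the glutamyl-tRNA amidotransferase, by 0.20. None of these passed (limma, adjusted p = 0.959 for Pnpt1, Taco1 and Gatb).

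Transcription elongation and termination genes were above 0 in 4 of 4, with Tefm, the elongation factor of POLRMT, at 0.098 and the terminator family gene Mterf3 at 0.070. In replication and maintenance 9 of 12 were above 0, with a median of 0.041. Polg2, the accessory subunit of the polymerase, read 7.02, 7.12 and 6.93 in control and 7.10, 7.26 and 7.20 in the Sirt1 inactive arrays, a difference of 0.16 against -0.074 for its partner Polg. The groups of Polg2 overlapped through control replicate 2. Ssbp1, the single-stranded DNA binding protein, differed by 0.073. Transfer RNA modification genes were above 0 in 6 of 10, with a median of 0.068.

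The transcriptional regulators had the lowest median of the roles, 0.026, with 6 of 10 above 0. Ppargc1a, the coactivator PGC-1alpha, read 10.57, 10.31 and 10.11 in control and 10.64, 10.21 and 10.49 in the Sirt1 inactive arrays. Its values overlapped widely, and the difference was 0.12 (SE 0.15). Nrf1 differed by 0.023, Gabpa, the DNA-binding subunit of GABP, by -0.028, and the nuclear receptor Esrra by -0.055. Crebbp, named after its values were seen, was the 1 gene of the 78 with non-overlapping groups and the Sirt1 inactive arrays below, at -0.091. These are transcript levels, and the activity of the proteins was not measured.

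**Figure D4:**
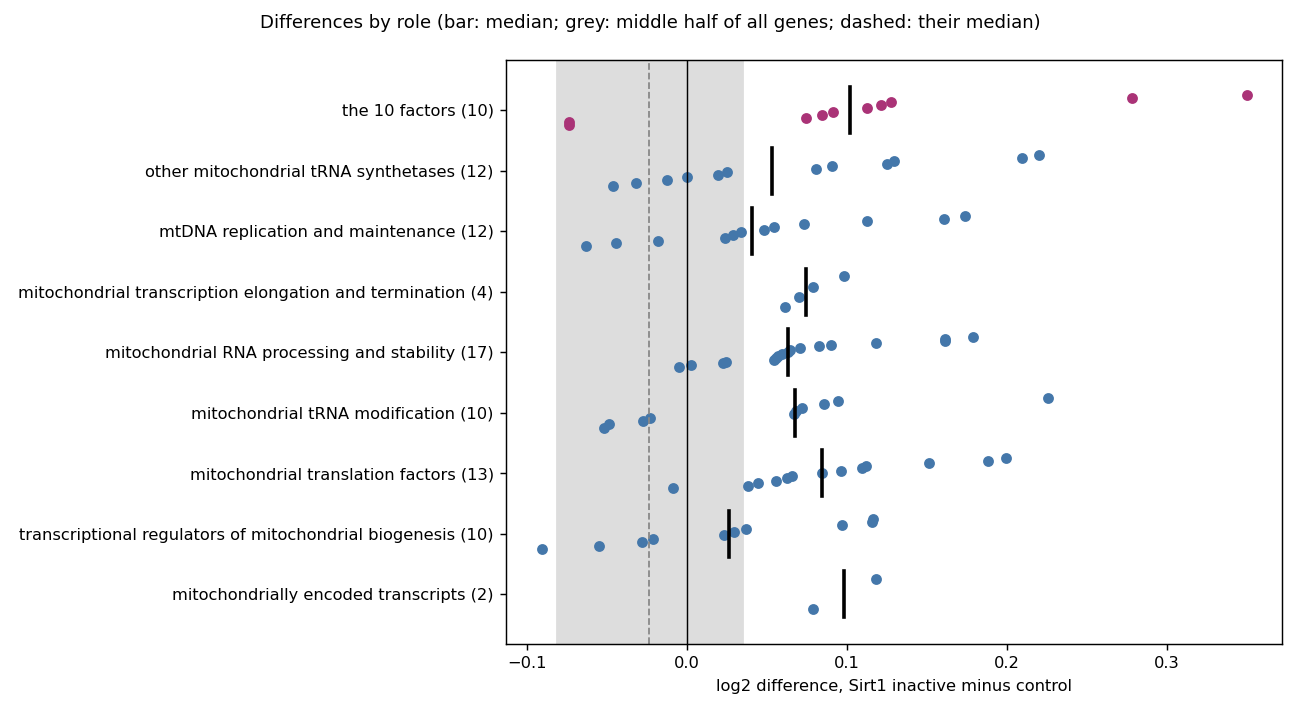
Log2 difference, Sirt1 inactive minus control (horizontal axis), of each gene by role, with the number of genes in parentheses; black bars are medians, the grey band holds the middle 50% of all 19937 genes and the dashed line is their median, -0.024. The role medians run from 0.026 for transcriptional regulators to 0.10 for the 10 factors.

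Of the 15 listed transcripts of the mitochondrial genome itself, 2 had a single-gene probe set. COX2, a subunit of cytochrome oxidase, read 12.61, 12.45 and 12.30 in control and 12.70, 12.53 and 12.49 in the Sirt1 inactive arrays. The groups overlapped, with replicate 1 the brightest in each, and the difference was 0.12 (SE 0.099; exact two-sided permutation p = 0.4). ND3, a subunit of the first respiratory complex, read 12.85, 12.77 and 12.65 in control and 12.88, 12.83 and 12.79 in the Sirt1 inactive arrays, a difference of 0.079 (SE 0.069; exact two-sided permutation p = 0.3). These exact tests take the arrays as unpaired. Each transcript was above its same-numbered control in 3 of 3 pairs. In a fit with the replicate number as a block, the SE was 0.058 for COX2 and 0.056 for ND3. Neither passed over all probe sets with or without the block (limma). Without control replicate 3, the dimmest array for both, their median difference fell from 0.098 to 0.033.

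None of the markers of other cell types passed (limma). Groups that do not overlap were found for 2.62% of all probe sets with the Sirt1 inactive arrays above and for 6.71% with them below. Of all genes 39.0% were above 0, so most were below it. Among genes at or above the median brightness of 7.94, 47.7% were above 0. Of 7 oligodendrocyte progenitor markers, 4 (Pdgfra, Sox10, Gpr17 and C1ql1) had groups that did not overlap, with the Sirt1 inactive arrays above. Cspg4 (-0.12), Olig1 (-0.073) and Olig2 (-0.15) were below 0. This list was chosen with earlier results of these data known, so nothing is read from the 4 of 7. The difference of Pdgfra was 0.79 with all arrays and 0.42 without control replicate 3. Without that array Sox10, Gpr17 and C1ql1 differed by 0.20, 0.67 and 0.39. The mean log2 level of all 7 was 9.41 to 9.53 in control and 9.68 to 9.89 in the Sirt1 inactive arrays. All 7 neuroblast and neuron markers were below 0, 2 of them with groups that did not overlap, with a mean level of 8.58 to 8.98 against 8.38 to 8.56. The 7 microglia and macrophage markers were below 0 as well, 4 of them without overlap, at 6.90 to 7.002 against 6.83 to 6.86. These mean levels lie below the median brightness of all genes. Astrocyte markers were above 0 in 6 of 7, at 9.66 to 10.59 against 10.48 to 10.64, the low value being control replicate 3; without that array 3 of 7 were above 0 and their median difference went from 0.14 to -0.0021. Myelinating oligodendrocyte markers were below 0 in 5 of 5, endothelial markers in 4 of 5, and mural cell and fibroblast markers in 3 of 6, with the other 3 above 0. RMA values have no 0, so none of these markers can be called absent, and the part of cell composition in the values of the mitochondrial factors was not tested.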

How the data were processed

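The authors deposited 1 table of log2 values for 6 arrays. The submitters' processing notes name RMA, a method that removes background, equalises the distributions of the arrays and summarises each probe set, which compresses differences of dim probe sets. The log2 scale was read from the values, which ran from 3.02 to 13.62 with array medians of 7.36 to 7.39. The sources used here give neither the RMA version nor the annotation's genome build. The table held 0 columns of other samples.

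Of 34760 probe sets, GEO's platform annotation pairs 21640 with 1 gene and 1321 with several, leaving 11799 without a gene in the annotation used; the 22961 with a gene were tested. Entrez identifiers were matched to RefSeq (GRCm38.p6) for 21553 of these single-gene probe sets, and 0 symbols changed. Differences were fitted with limma 3.58.1 in R 4.3.3, with genotype as the term and empirical Bayes moderation; tests were two-sided, with Benjamini-Hochberg adjustment over every probe set tested. Precision is limited by having 3 arrays per genotype. The fit was tested on simulated data with independent noise and added differences larger than any of the mitochondrial factors. That test does not cover differences of their size, nor arrays that deviate together.

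Same-numbered samples deviated together, with correlations of deviations from the group means of 0.47, 0.36 and 0.27, so a fit with the replicate number as a block was run as an alternative. The other alternatives were 2 scalings, 2 filters, an intensity trend with robust prior, array weights, averaged probe sets, and arrays left out. The genes, lists, motifs and named-gene rule (all 10 factors, all measured synthetases and mitochondrial transcripts, and fixed genes per role) were chosen with earlier results of these data known. Promoters come from RefSeq; where 525 windows on opposite strands overlapped, all 525 matched as reverse complements. Protein sequences were not used here.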

Additional observations from a re-analysis of the deposited data

How the results depend on the processing

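Over all probe sets 0 passed with all 6 arrays (limma) and in 14 of 15 alternatives, the replicate block among them, where the smallest adjusted p was 0.51 and 1741 probe sets had an unadjusted p under 0.05. In the paired fit with the replicate block and without both arrays of number 3, 19 probe sets passed, none of them 1 of the 10 factors or of the 78 other nuclear genes, and the block changed no other call. The median difference of the 10 factors ran from 0.053 to 0.17 over the 15 alternatives, that of the 78 other nuclear genes from 0.010 to 0.10, and that of the 2 mitochondrial transcripts from 0.033 to 0.16, with both ends of each range among the fits that left out 1 array. The differences of 8 of the 10 factors kept their sign in all 15, with Tfb2m at 0.23 to 0.43 and Wars2 at 0.23 to 0.34, while those of Polg (2 alternatives) and Yars2 (1) changed sign. Tfb2m was at its lowest with both probe sets averaged. With 3 arrays per genotype, differences of the size of most of these genes lie within the spread between replicates taken as unpaired. With the replicate block the standard errors of the 10 factors were smaller. That of Tfb1m was 0.056 against 0.10, and that of Tfb2m 0.082 against 0.083. In that fit 0 of the 10 passed (limma).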

Other observations

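The place of the second Tfb2m probe set in the array's numbering differed from that of the gene. Sorted by identifier, 94.8% of single-gene probe sets lie on the same chromosome as the probe set before them, by RefSeq's positions of their genes. The brighter Tfb2m probe set, 10360580, stands between those of Smyd3 and Ahctf1, which are on chromosome 1 like Tfb2m. The other, 10400165, stands between Nova1 and Prkd1, which are on chromosome 12. The sequences behind the probe sets were not used here, so what the second one reads was not tested. This pair was examined after its values were seen.

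ND3 also had a second probe set, which read 12.38, 12.25 and 12.03 in control and 12.47, 12.40 and 12.35 in the Sirt1 inactive arrays. Its difference was 0.18, against 0.079 in the brighter one, and it was above the same-numbered control in 3 of 3 pairs. Without control replicate 3 it was 0.088. Among RNA processing genes, Fastkd1, named after its values were seen, ran with the replicate numbers: 8.22, 8.68 and 8.40 in control and 8.33, 8.93 and 8.53 in the Sirt1 inactive arrays. Its pairs differed by 0.11, 0.25 and 0.12, while its groups overlapped.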
